A study of Homo sapiens with 2 samples.

Results

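The data below describe 10 genes of the NF-kB pathway across hashtag pairs and across cells of the ovarian carcinoma line OVCAR5. The genes were taken by name from the deposited gene list: NFKBIA, TNFAIP3, TNIP3, BIRC3, NFKB1, NFKB2, RELB, BCL3, TNFAIP2 and ICAM1. They are 10 of 36601 genes in the matrix, and all 10 were found. The OVCAR5 cells carried a reporter that senses interferon-gamma and expressed the fluorescent protein CFP, and this holds for every group of the study. The labels name 18 conditions in 1 pool: no interferon-gamma, or 1, 10 or 100 ng/ml, each for 2, 6, 12 and 24 h, and frozen cells of the 24 h unstimulated and 24 h 100 ng/ml conditions. The pool gave 1 gene expression library and 1 hashtag library. Hashtags are barcoded antibodies that mark the cells of a condition before pooling. Which hashtags mark which condition is not stated in the labels or files used here. No value below is therefore a comparison of doses, times or freezing, and a pair of hashtags is a marked group of cells of unknown condition.

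A pair was read in 6114 cells, which fell into 18 of 28 possible pairs with 166 to 493 cells each. Each pair held 5392185 to 16184801 gene UMIs (unique molecular identifiers, counted RNA molecules), with a median of 27824.5 to 32945 per cell. All pairs share 1 library, and there is 1 pool, so there are no replicates and no test was run. Intervals are exact 95% intervals and cover counting error only. The cells carried the keratin markers of epithelium, KRT8 in 99.4% and KRT18 in 99.9% of paired cells. Leukocyte CD3E and TYROBP, endothelial CDH5 and KDR and fibroblast COL1A2 were at 0 UMIs. Other markers of these types were seen in few cells, up to COL1A1 in 2.03% and LYZ in 1.33%, and the summed level of each of these 3 lists was at most 1.67 CPM in any pair.

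NF-kB is a family of paired transcription factors built from RELA, REL, RELB and the products of NFKB1 and NFKB2. Inhibitor proteins hold them in the cytoplasm until signals from receptors for TNF, interleukin-1, lymphotoxin or CD40 lead to the inhibitors' destruction. Among the genes they then turn on are their own inhibitors, and this negative feedback limits the response. ICAM1, an adhesion ligand for leukocyte integrins on epithelium and endothelium, is a textbook target of both NF-kB and interferon-gamma signalling.

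The promoters are shown because the members did not share 1 order over the pairs, and because NF-kB and interferon-gamma signalling act through different promoter motifs. RefSeq promoters (GRCh38.p14) were matched by symbol for 9 of 10 members (not RELB). The windows below are the 250 bases before the RefSeq start of 4 members, printed 5′ to 3′ on the gene's strand. Gene positions further below are GENCODE spans, whose starts can differ. The ICAM1 window lies inside the GENCODE span, and the TNFAIP3 and BIRC3 windows run past the GENCODE start. NFKBIA lies at chr14:35404750-35404999 on the minus strand. TNFAIP3 lies at chr6:137867009-137867258, BIRC3 at chr11:102317234-102317483 and ICAM1 at chr19:10270870-10271119, all on the plus strand. Capitals mark matches on either strand to the kB consensus, to a short kB motif GGAAANNCC, or to the GAS (gamma-activated site) motif TTCNNNGAA of interferon-gamma target genes.
NFKBIA: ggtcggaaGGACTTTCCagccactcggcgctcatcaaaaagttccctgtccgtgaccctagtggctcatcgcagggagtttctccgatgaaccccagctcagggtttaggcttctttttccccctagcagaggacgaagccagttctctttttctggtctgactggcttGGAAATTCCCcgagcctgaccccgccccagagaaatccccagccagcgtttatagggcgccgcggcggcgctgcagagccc
TNFAIP3: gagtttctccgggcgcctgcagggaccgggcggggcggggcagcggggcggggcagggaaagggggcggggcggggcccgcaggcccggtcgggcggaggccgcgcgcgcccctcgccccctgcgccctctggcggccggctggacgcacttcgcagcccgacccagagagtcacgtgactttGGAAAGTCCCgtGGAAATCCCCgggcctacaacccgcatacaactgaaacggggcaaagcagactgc
BIRC3: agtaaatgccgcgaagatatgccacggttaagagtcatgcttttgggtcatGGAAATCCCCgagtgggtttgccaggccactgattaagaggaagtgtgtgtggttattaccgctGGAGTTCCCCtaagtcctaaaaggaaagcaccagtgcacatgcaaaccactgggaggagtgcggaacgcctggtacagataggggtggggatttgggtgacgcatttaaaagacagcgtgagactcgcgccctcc
ICAM1: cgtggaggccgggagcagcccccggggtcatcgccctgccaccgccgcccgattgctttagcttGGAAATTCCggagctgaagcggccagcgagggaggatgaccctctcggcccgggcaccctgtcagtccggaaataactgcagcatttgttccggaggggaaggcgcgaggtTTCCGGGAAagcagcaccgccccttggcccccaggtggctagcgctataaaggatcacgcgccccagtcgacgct

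The short kB motif was found in at least 1 window of 9 of 9 members, against 6.69% of 27305 genes and 5.48% of their 35116 windows. NFKB1 has 2 starts and NFKB2 and TNIP3 have 3 each, so a member can have several windows. It was written down after these promoters had been read, so this count is a description only. The kB consensus was found for 6 of the 9 members, against 11.8% of genes and 9.96% of windows, and many of its matches overlap the short motif. In ICAM1 the short motif ran from base -186 to -178 before the start and the GAS motif from -75 to -67. The GAS motif was found for ICAM1 and for 1 of 3 starts of TNIP3, against 8.09% of genes and 6.57% of windows. An interferon regulatory factor motif, GAAA and again GAAA with any 2 bases between, was found in none of the 9 members' windows, against 3.71% of genes and 3.02% of windows. A match says only that the letters are there.

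Levels are CPM, a gene's summed UMIs in a pair per 1000000 UMIs of that pair. A gene's span is the CPM of its highest pair divided by that of its lowest. Of the 10 members, 9 had at least 100 UMIs in paired cells and were counted. Spans of at least 4-fold were reached by 3 of 9 members (ICAM1, TNFAIP3 and BIRC3), against 14.5% of 13921 genes with at least 100 UMIs. Among genes with at least 2000 UMIs it was 2 of 8 members, against 3.45% of 7566 genes. The median span of the 9 members was 3.36, beside 1.88 over all genes with at least 100 UMIs. IRF1, a transcription factor and direct target of interferon-gamma signalling, serves as a reference for that response. It ran from 43.7 CPM in pair 2+4 to 1357 CPM in pair 1+6, with an 11.4-fold step (10.6 to 12.3) between its 5 lowest pairs and the rest. CD74, the invariant chain of MHC class II and a further reference, ran from 16.0 CPM in pair 3+5 to 1278 in pair 7+8.

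**Figure D1:**
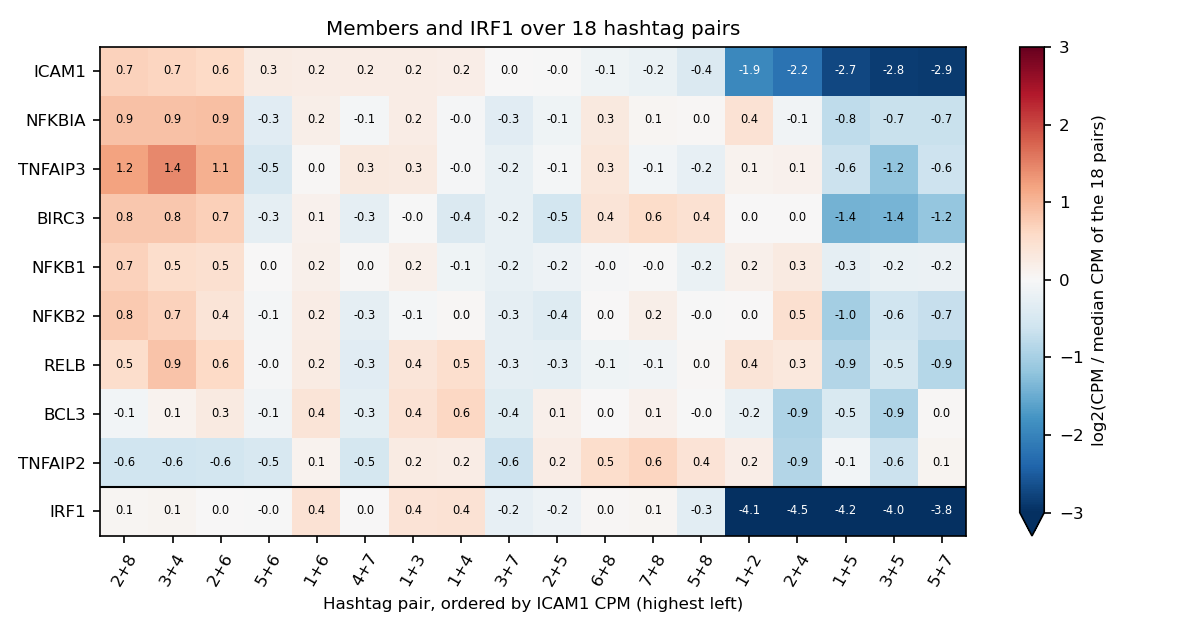
Levels of 9 members and IRF1 (rows) in 18 hashtag pairs (columns, ordered by ICAM1), as log2 of CPM over the gene's median pair, where the darkest blue holds all values under the colour scale. Pairs 2+8, 3+4 and 2+6 at the left are the 3 highest for 6 of the 9 members, and the 5 pairs at the right are the lowest for ICAM1 and IRF1.

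Pairs 2+6, 2+8 and 3+4 were the 3 highest pairs for 6 of 9 members: NFKBIA, TNFAIP3, BIRC3, NFKB1, RELB and ICAM1. Of all 13921 genes with at least 100 UMIs, 1.37% had these 3 pairs at the top. Pair 1+5 was the lowest for 5 of 9 members (NFKBIA, NFKB1, NFKB2, RELB and BIRC3), against 4.97% of genes. With a hashtag rule of factor 10 in place of 5, or under a stricter cell filter, 1+5 was lowest for 3 of 9, while the top 3 held for 5 of 9. Both counts were chosen after the values were seen. The same 3 pairs were among the 4 lowest in mitosis genes: of 14 G2/M genes fixed as a list, 10 were lowest in pair 3+4 and 3 in pair 2+8. Their summed level was 1959 CPM in 3+4, 2084 in 2+8, 2233 in 1+2 and 2388 in 2+6, with a median pair at 2947. The 3 pairs lowest in BIRC3 and among the 5 lowest in NFKBIA were the 3 highest in that sum, with 3565 CPM in 5+7, 3553 in 1+5 and 3362 in 3+5. Other pairs went the other way. Pairs 7+8 and 5+8 had 3331 and 3248 CPM in that sum, yet came directly under the top 3 for BIRC3 at 89.2 and 82.9 CPM. Pair 1+4 was low in the sum at 2426 CPM, yet among the 5 lowest for BIRC3 at 45.0 CPM. No G2/M gene of the list spanned 4-fold (0 of 14), nor did any of 14 S phase genes (0 of 14). Over the 18 pairs, the levels of the 9 members had negative rank correlations with the pair's median UMIs per cell. They ran from -0.60 for RELB and BCL3, through -0.55 for NFKBIA, to -0.08 for ICAM1. The part of the cell cycle or of depth in the order of the pairs was not tested.

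NFKBIA (chromosome 14, 35401511 to 35404749, GRCh38, GENCODE annotation) encodes IkB-alpha, the inhibitor that NF-kB resynthesises within its own response. It ran from 54.1 CPM in pair 1+5 through a median of 91.7 to 171.8 in pair 2+6, a span of 3.17 (2.86 to 3.53). Pairs 2+8 and 3+4 had 169 and 169.9 CPM, and the 3 top pairs could not be told apart. Below them came a 1.38-fold step (1.28 to 1.48) to pair 1+2 at 122.9 CPM. Pair 1+2 was thus the fourth highest for NFKBIA, although it was among the 5 lowest for IRF1 at 57.9 CPM and for ICAM1 at 36.8 CPM. The other 4 IRF1-low pairs had 84.9 (2+4), 57.4 (5+7), 57.3 (3+5) and 54.1 (1+5) CPM of NFKBIA. Pairs 5+7, 3+5 and 1+5 were the 3 lowest of all, under a 1.26-fold step (1.135 to 1.407) from pair 3+7 at 72.6 CPM. Pairs 2+4 and 1+2 lay above that step, so the 5 IRF1-low pairs did not form 1 low group. Of 17 neighbouring steps in its order, 4 were larger than counting error.

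TNFAIP3 (chromosome 6, 137867188 to 137883312) encodes A20, an enzyme that edits ubiquitin chains and shuts off signalling upstream of NF-kB. It ran from 2.72 CPM in pair 3+5 through a median of 6.2 to 16.9 in pair 3+4. The span was 6.22 (4.46 to 8.84), on 44 UMIs in the lowest and 192 in the highest pair. Pairs 2+8 and 2+6 followed with 14.4 and 12.9 CPM, and the next, 6+8, was 1.66-fold lower (1.29 to 2.13) at 7.79. The remaining steps in its order were within counting error.

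BIRC3 (chromosome 11, 102317450 to 102339403) encodes cIAP2, a ubiquitin ligase at the TNF receptor and a survival factor. It ran from 22.7 CPM in pair 1+5 through a median of 60.7 to 106.2 in pair 2+8, a span of 4.69 (3.998 to 5.53). Pairs 1+5, 3+5 and 5+7 formed its low end at 22.7, 22.9 and 27.3 CPM, and a 1.52-fold step (1.27 to 1.82) separated them from pair 2+5 at 41.5. Pairs 7+8, 5+8 and 6+8, at 89.2, 82.9 and 79.9 CPM, came directly under the top 3. The other IRF1-low pairs, 1+2 and 2+4, stood at 61.7 and 61.3 CPM, in the middle of the range.

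TNIP3 (chromosome 4, 121131408 to 121227466) encodes a partner of A20. It had 85 UMIs in all paired cells and was under the minimum of 100. Its highest counts were 13 UMIs in pair 3+4 and 13 in 2+6, and pair 1+5 had 0. A count of 0 allows up to 3 UMIs, and no fold is given on such counts. No neighbouring pairs could be told apart for TNIP3.

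**Figure D2:**
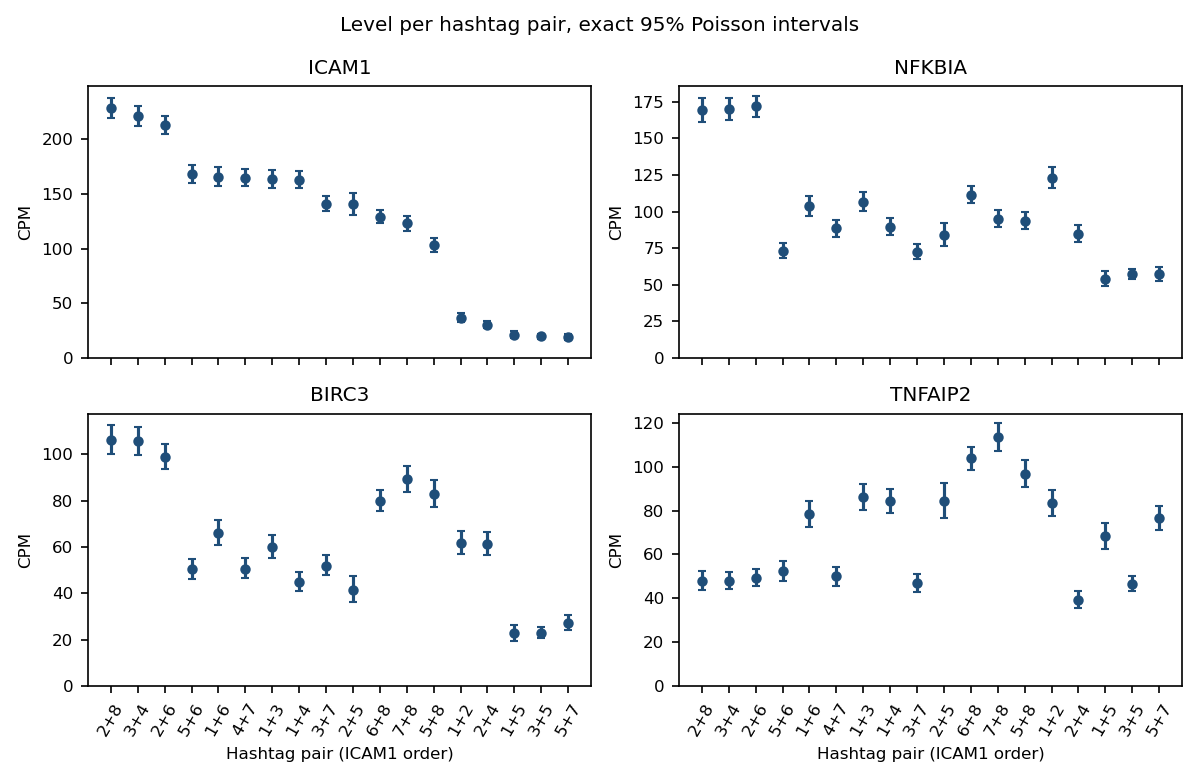
CPM of ICAM1, NFKBIA, BIRC3 and TNFAIP2 in each of 18 hashtag pairs, in the order of ICAM1, with exact 95% Poisson intervals. ICAM1 drops from 103.6 to 36.8 CPM between pairs 5+8 and 1+2, while NFKBIA and BIRC3 in pair 1+2 lie in or above the middle of their ranges and TNFAIP2 follows another order.

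Of the subunit genes, NFKB1 had the narrowest span of the 9 counted members. NFKB1 (chromosome 4, 102501329 to 102617302), which encodes p105 and its product p50, ran from 24.4 CPM in pair 1+5 through 29.6 to 47.8 in pair 2+8, a span of 1.95 (1.65 to 2.32). NFKB2 (chromosome 10, 102394110 to 102402529) encodes p100 and p52 of the non-canonical arm. It ran from 5.89 CPM in pair 1+5 through 12.0 to 20.7 in pair 2+8, a span of 3.52 (2.55 to 4.95). RELB (chromosome 19, 45001430 to 45038198), the partner of p52, ran from 7.94 CPM in pair 1+5 through 14.7 to 26.7 in pair 3+4, a span of 3.36 (2.55 to 4.49). Of 17 neighbouring steps, NFKB1 and RELB each had 1 beyond counting error and NFKB2 had 0, so their orders are loose. Pair 2+4, the lowest of all for IRF1, was the third highest for NFKB2 at 16.7 CPM and the fourth for NFKB1 at 35.5 CPM.

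BCL3 (chromosome 19, 44747705 to 44760044), an atypical IkB protein that acts in the nucleus with p50 and p52, was highest in other pairs. It ran from 8.53 CPM in pair 3+5 through 16.2 to 24.9 in pair 1+4, a span of 2.92 (2.37 to 3.61). Pairs 1+4, 1+3 and 1+6, at 24.9, 22.1 and 21.3 CPM, were its 3 highest, and the same 3 pairs were the highest for IRF1 at 1349, 1322 and 1357 CPM. Pairs 2+6, 3+4 and 2+8, at the top for NFKBIA, were at 19.5, 17.4 and 15.3 CPM for BCL3, and the first of these could not be told apart from pair 1+6.

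TNFAIP2 (chromosome 14, 103123442 to 103137439), a TNF-induced gene linked to membrane protrusions, followed yet another order. It ran from 39.2 CPM in pair 2+4 through 72.4 to 113.4 in pair 7+8, a span of 2.89 (2.58 to 3.26). Pairs 7+8, 6+8 and 5+8 led with 113.4, 103.8 and 96.6 CPM. The pairs that led for NFKBIA were near its bottom, at 49.5 (2+6), 48.0 (3+4) and 47.9 CPM (2+8). Its rank correlation over the 18 pairs was 0.20 with NFKBIA, 0.08 with BIRC3, -0.13 with ICAM1 and 0.59 with BCL3. It was 0.83 with the pair's median share of mitochondrial UMIs, which ran from 10.5 to 12.4%. Counted per 1000000 non-mitochondrial UMIs, the span of TNFAIP2 was 2.94 and the same pairs led. On that scale its rank correlation with the mitochondrial share of the pair's summed UMIs was 0.91. Under a stricter cell filter, which asked for mitochondrial UMIs of 10% or less, pair 1+3 was highest, with 6+8 and 7+8 next. The part of mitochondrial content or RNA quality in its order was not tested.

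ICAM1 (chromosome 19, 10270835 to 10286615) had the widest span of the 9 counted members. It ran from 19.4 CPM in pair 5+7 (197 UMIs) through a median of 141 to 228.2 in pair 2+8 (2337 UMIs), 11.8-fold (10.2 to 13.7). The 18 pairs fell into 2 sets. Pairs 5+7, 3+5, 1+5, 2+4 and 1+2 had 19.4, 19.6, 21.4, 30.4 and 36.8 CPM. The other 13 pairs had 103.6 CPM or more, and the step between the sets was 2.81-fold (2.49 to 3.19). The 5 low pairs were the 5 lowest for IRF1 as well, which held for 1 of 9 members (ICAM1) and for 2.46% of genes with at least 100 UMIs. NFKBIA, BIRC3, TNFAIP3 and the 3 subunit genes each shared 3 of these 5 pairs.

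Within the 5 low pairs, ICAM1 in pairs 2+4 and 1+2 was above the other 3. Pair 1+2 was 1.21-fold above 2+4 (1.03 to 1.42), and 2+4 was 1.42-fold above 1+5 (1.17 to 1.73). These 2 pairs were also the higher ones among the 5 for NFKBIA, BIRC3, TNFAIP3, NFKB1, NFKB2 and RELB. For BIRC3 they had 61.7 and 61.3 CPM against 22.7 to 27.3 in the other 3. IRF1 in the 5 pairs ranged from 43.7 (2+4) to 70.8 CPM (5+7) and did not follow that split.

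Among the 13 pairs above the step, ICAM1 shared its highest pairs with NFKBIA, TNFAIP3, BIRC3, NFKB1 and RELB. Pairs 2+8, 3+4 and 2+6 led with 228.2, 221.2 and 212.8 CPM, then came a 1.27-fold step (1.19 to 1.35) to pair 5+6 at 168.1. At the lower end stood 6+8, 7+8 and 5+8 with 128.9, 123 and 103.6 CPM. Over these 13 pairs, a set chosen after the values were seen, the rank correlation of ICAM1 was 0.84 with NFKB1, 0.42 with NFKBIA, 0.40 with IRF1 and 0.32 with BIRC3. Of 17 neighbouring steps over all pairs, 7 were beyond counting error.

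The genes whose order over the 18 pairs was most like each member were taken from all genes with at least 2000 UMIs. Rank correlations are given as descriptions, since the pairs share 1 library. For NFKBIA they were CFLAR (0.91), which encodes the caspase-8 inhibitor c-FLIP, JUNB (0.87), a subunit of AP-1, and ARL14EP (0.86). BIRC3 was closest to PISD (0.88), CFLAR (0.85) and PLAC8 (0.83), and TNFAIP3 to AC010642.2 (0.82), SELENOI (0.81) and JUNB (0.81). NFKBIE, which encodes IkB-epsilon, was among the 3 nearest of both NFKB1 (0.90) and RELB (0.91). SRSF7, a splicing factor gene, was the nearest of both NFKB2 (0.95) and RELB (0.92). FNTA (0.90) and NAT9 (0.88) completed the set of NFKB1, TGIF2 (0.90) and ALKBH2 (0.87) that of NFKB2, and YWHAG (0.90) that of RELB.

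For ICAM1 they included NNMT (0.96) and IRF8 (0.92), an interferon-induced transcription factor. Over the 13 pairs above its step these values were 0.92 and 0.87. BCL3 was nearest to CEBPD (0.83), TMEM173 (0.82), which encodes the DNA-sensing adaptor STING, and LIPH (0.81). TNFAIP2 was nearest to MT-ATP6 (0.96), SYNE2 (0.94) and MT-ND4 (0.94), where the MT genes are encoded by mitochondrial DNA. Per 1000000 non-mitochondrial UMIs, a scale added for this measure after the data were seen, these were 0.96, 0.96 and 0.94. For TNIP3 the nearest were KLHDC4 (0.76), HUS1 (0.76) and TLCD3A (0.75), on its 85 UMIs.

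The rest of the pathway was read from lists, counting genes with at least 100 UMIs that spanned 4-fold. Of all such genes 14.5% did so. Secreted NF-kB targets did so in 10 of 13. Several of these spans rest on few UMIs in the lowest pair: 12 for CXCL8, 7 for CXCL2, 6 for CCL2 and 0 for IL6. IL32 had 33 and CSF1 had 54. CXCL8, a neutrophil chemokine, ran from 0.83 CPM in pair 6+8 to 57.9 in 1+2, 69.3-fold (39.4 to 135). CCL2, a monocyte chemokine, ran from 0.77 CPM in pair 1+5 to 27.1 in 1+3, 35.3-fold (16.0 to 97.1). IL32 ran from 4.22 CPM in pair 1+5 to 113.3 in 3+7, and LIF from 14.3 in 5+7 to 54.8 in 1+3. These 4 were highest in pairs other than 2+6, 2+8 and 3+4. CSF1 and IL6 were highest in 2+6 (29.9 CPM) and 2+8 (1.95 CPM), IL6 on 112 UMIs in all paired cells. The other counted secreted targets were CXCL1, CXCL2, CXCL3, IL1A, IL1B, LTB and CSF2. Each was highest in a pair that holds hashtag 1, as were CXCL8, CCL2 and LIF. Apart from CXCL8, CXCL2, CCL2, IL32 and LIF, these genes were named after their values were seen.

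Of 8 kinases 1 spanned 4-fold, a share near the 14.5% of all genes: MAP3K14, which encodes NIK, the kinase of the non-canonical arm. It ran from 12.4 CPM in pair 5+7 to 65.0 in pair 2+8, 5.25-fold (4.33 to 6.4). MAP3K8 spanned 2.75, and IKBKB, a kinase of IkB proteins, ran only from 18.6 to 24.9 CPM. Of 16 receptors and adaptors 2 spanned 4-fold, again near 14.5%: CD40, from 12.6 (2+4) to 61.6 CPM (4+7), and TLR3, on 4 UMIs in its lowest pair. TNFRSF12A, the TWEAK receptor, ran from 249.3 (5+7) to 611.2 CPM (2+8), and TNFRSF1A, the main TNF receptor, from 106.3 to 166.1. TNF itself had 9 UMIs in all paired cells.

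RELA, the main activating subunit, spanned 1.36 (33.5 to 45.8 CPM), and REL spanned 2.27 with its highest pair at 1+5, where NFKBIA was lowest. Of 4 other IkB genes 0 spanned 4-fold. NFKBIE ran from 9.85 CPM in pair 1+5 to 29.3 in 2+6, the same ends as NFKBIA, and NFKBID spanned 2.91, while NFKBIB ran from 16.4 to 21.6 CPM. Of 11 ubiquitin regulators 0 spanned 4-fold. CYLD, a deubiquitinase that restrains NF-kB, ran from 4.42 (2+4) to 15.1 CPM (2+8), RBCK1 from 205.7 (2+4) to 522.8 (2+5) and TAX1BP1 from 186.1 to 242.5. Of 12 other targets 1 spanned 4-fold, VCAM1, an adhesion ligand, from 2.97 (3+5) to 14.5 CPM (7+8). GADD45B spanned 3.91, IER3 ran from 73.8 to 233.5 and PLAU from 153 to 246.3 CPM. Among other adhesion genes 1 of 5 did, ITGB2, on 1 UMI in its lowest pair. ICAM2 ran from 19.7 to 32.3 CPM, F11R from 15.8 to 24.1 and CD58 from 13.2 to 24.6. The reference genes spanned 4-fold in 0 of 7.

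Shares of cells were taken after each cell was thinned to 10000 UMIs, which left out 158 cells (5 to 19 per pair). ICAM1 was seen in 87.1% of cells of pair 2+6 (83.3 to 90.2%) and in 14.1% of pair 5+7 (10.5 to 18.4%). Without thinning these were 97.2% and 40.1%. NFKBIA was seen in 70.7% of cells of pair 2+8 (65.4 to 75.6%) and in 38.3% of pair 5+7 (33.0 to 43.9%), or 87.6% and 67.4% unthinned. BIRC3 was seen in 53.4% of cells of pair 3+4 and 14.2% of pair 3+5 (71.0% and 31.9% unthinned), and TNFAIP2 in 63.8% of pair 7+8 and 27.5% of pair 2+8 (85.7% unthinned in the former). The pool was of 1 cell line and no cell type lacking these genes was identified, so the share that free RNA gives was not measured. TNFAIP3, NFKB1, NFKB2, RELB and BCL3 were seen in at most 32.1% of thinned cells of any pair.

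Among ICAM1, NFKBIA, TNFAIP2 and BIRC3, the members with the most UMIs, cells of 1 pair differed most in NFKBIA and BIRC3. The Fano factor, the variance over the mean of thinned UMIs, is 1 where cells differ by counting alone. Its median over the 18 pairs was 2.03 for NFKBIA (1.21 to 2.99) and 2.06 for BIRC3 (1.12 to 2.94). It was 1.38 for TNFAIP2 (1.15 to 1.89) and 1.28 for ICAM1 (1.02 to 1.67). NFKBIA was above ICAM1 in 17 of 18 pairs and BIRC3 above ICAM1 in 18 of 18. In the pairs lowest in ICAM1, NFKBIA and ICAM1 were not compared at like means. ICAM1 had 0.16 (5+7) to 0.39 (1+2) thinned UMIs per cell there, which keeps its factor near 1, and NFKBIA had 0.58 (1+5) to 1.25 (1+2). The most NFKBIA UMIs in a thinned cell was 20. The other members had fewer UMIs per cell, where the factor stays near 1 even if cells differ. Their medians ran from 0.997 for TNIP3 to 1.15 for TNFAIP3, and the factor cannot rank them against the members above.

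**Figure D3:**
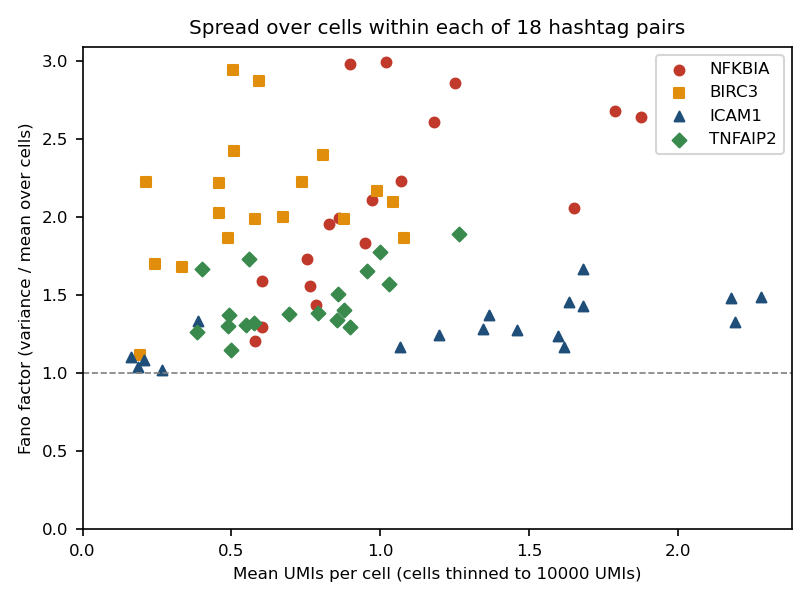
Fano factor (variance over mean of UMIs over cells) against mean UMIs per cell, cells thinned to 10000 UMIs, for 4 members with a point for each of 18 hashtag pairs and a dashed line at 1. ICAM1 lies between 1.02 and 1.67 over its whole range, below BIRC3 in 18 of 18 pairs and below NFKBIA in 17. In the pairs lowest in ICAM1 its mean is under that of NFKBIA, so the 2 are not compared at like means there.

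Across cells within a pair the rank correlations between members were low. Thinned counts are sparse, with TNFAIP3 in at most 11.9% and TNIP3 in at most 1.35% of thinned cells of any pair. Such counts keep rank correlations low even if members are linked, so the values do not measure how strong a link is. Over 45 combinations of members the median rank correlation was 0.031, and 0.103 without thinning. The highest median was that of NFKBIA with BIRC3, 0.19 (0.098 to 0.35 over pairs, above 0 in 18 of 18, and 0.33 without thinning), then NFKBIA with TNFAIP3, 0.14 (0.058 to 0.22, 18 of 18). NFKBIA with ICAM1 was at 0.043 and NFKBIA with TNFAIP2 at 0.016. Each member was also compared with the summed UMIs of the other 9. In the 10% of cells of each pair with the most such UMIs, BIRC3 was 2.46-fold (2.29 to 2.64) and NFKBIA 1.96-fold (1.84 to 2.07) the level of the other cells, while ICAM1 was 1.27-fold (1.19 to 1.36). TNFAIP3 was 3.75-fold (3.13 to 4.45), on 130 UMIs. The sums are dominated by the most abundant members, and cells of 1 pool are not replicates.

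Some cells of every pair held antiviral transcripts in excess, with at least 5 UMIs summed over CCL5, RSAD2, HERC5 and OASL. There were 472 such cells (13 to 50 per pair), with a median of 31481 UMIs against 29801 in other paired cells. NFKBIA in them was 1.90-fold (1.83 to 1.98) its level in the remaining cells of the same pairs and higher in 18 of 18 pairs. BIRC3 was 1.81-fold (1.73 to 1.9), also in 18 of 18, TNFAIP3 1.83-fold (1.58 to 2.11) in 15 and NFKB2 1.52-fold (1.35 to 1.71) in 16. ICAM1 was at 1.06 (1.02 to 1.11) and higher in 11 of 18, NFKB1 at 1.01 (0.92 to 1.1) and RELB at 1.03 (0.91 to 1.17). For NFKBIA the ratio ran from 1.25 in pair 5+7 (71.0 CPM in 18 cells against 56.6 in the rest) to 3.14 in pair 4+7 (226.5 CPM in 29 cells against 72.2).

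A separate set of 67 cells held at least 2 UMIs of SERPINB3, a squamous epithelial serpin gene. They had a median of 41231 UMIs and 4.39% mitochondrial UMIs, against 11.5% in the other cells. BIRC3 was at 0.17 of the level in the remaining cells (0.12 to 0.24), ICAM1 at 0.34 (0.29 to 0.41), TNFAIP2 at 0.42 (0.33 to 0.52) and NFKBIA at 0.58 (0.5 to 0.67). BIRC3, ICAM1 and TNFAIP2 were lower in 17 of 17 pairs that held such cells. NFKB1 was at 1.32 (1.09 to 1.57) and RELB at 1.05 (0.78 to 1.37). The part of depth and mitochondrial content in these ratios was not tested.

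**Figure D4:**
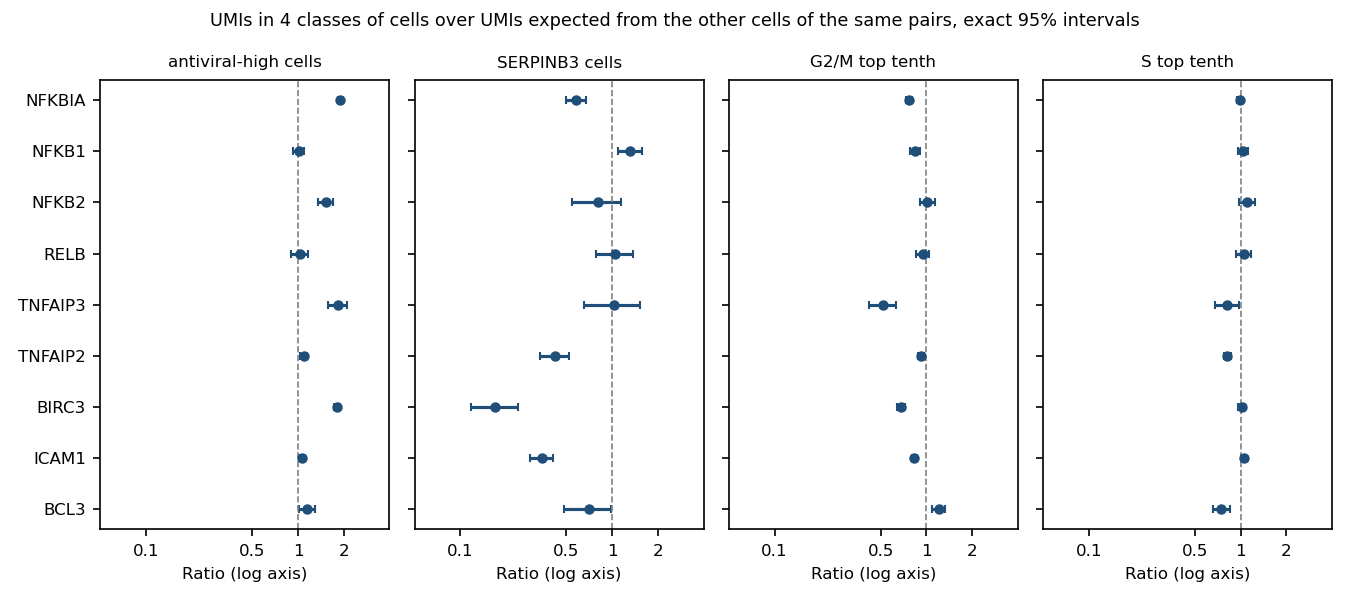
UMIs of 9 members in 4 classes of cells over the UMIs expected from the other cells of the same pairs (log axis), with exact 95% intervals of counting error and a dashed line at 1. NFKBIA, BIRC3, TNFAIP3 and NFKB2 lie above 1 in antiviral-high cells, BIRC3 and ICAM1 are lowest in SERPINB3 cells, and TNFAIP3 and BIRC3 are lowest in cells high in G2/M genes.

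By cell cycle, the 10% of cells of each pair highest in G2/M genes had 0.52 of the TNFAIP3 level of the other cells (0.42 to 0.63) and 0.68 of the BIRC3 level (0.64 to 0.72). NFKBIA was at 0.77 (0.74 to 0.81) and lower in 16 of 18 pairs, and ICAM1 at 0.83 (0.8 to 0.86) and lower in 18 of 18. BCL3 went the other way, at 1.2 (1.09 to 1.32) and higher in 14 of 18. In the 10% of cells highest in S phase genes, BCL3 was at 0.74 (0.65 to 0.85) and TNFAIP2 at 0.82 (0.77 to 0.87). TNFAIP3 there was at 0.81 (0.67 to 0.97), and NFKBIA and BIRC3 were at 0.98 (0.94 to 1.03) and 1.01 (0.96 to 1.07).

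On the opposite strand, ICAM1 and TNFAIP3 overlap annotated genes. No label or header states whether counting used strand, so such reads cannot be told apart.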

How the data were processed

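Deposited values are raw UMI counts per gene and barcode for 1 pool. Cell Ranger 5.0.1 wrote the matrix, per the file headers. The submitters' processing notes give GRCh38 and Cell Ranger 2.1.1, and which version made the counts could not be settled. The filter asked for 500 or more genes and for mitochondrial UMIs of 20% or less, which removed 603 of 7804 barcodes. A cell had a pair where its second hashtag held at least 5 times the third plus 1 UMI, in pairs of at least 100 cells. That left out 1087 cells as possible multiplets. Doublets within a pair cannot be seen, no other doublet caller was run, and free RNA was not subtracted.

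UMIs were summed per pair (189989029 in all) and divided by the pair's total (CPM). Levels have exact Poisson intervals at 95%, and ratios have conditional intervals, also exact. Spans use a lowest count of at least 3. Shares have Clopper-Pearson intervals. Neighbouring pairs were told apart where the interval of their ratio left out 1. Ratios between cells compare UMIs with those expected at the level of the remaining cells of each pair. Pathway, G2/M and S lists were fixed with the tests. The genes named are the members, for each member the 3 genes nearest in the order of pairs, for each pathway list the 2 highest and the 2 widest genes, and IRF1 and CD74. Some genes that this rule names are not reported here. RELA and REL are a list of their own, and TNF was named after its value was seen. The members and lists were chosen with earlier results of these data known. Calculations were tested on simulated data. The tools were numpy 2.4.6 and scipy 1.17.1 under Python 3.11.15. Other settings of the cell filter, the hashtag rule and the scale were tried, as were another weight of cells and the removal of distinct cells.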

Additional observations from a re-analysis of the deposited data

Results flagged for a closer look

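Signal of the members appeared in barcodes that no comparison above uses. In the 603 barcodes that failed the cell filter, NFKBIA was at 123.8 and ICAM1 at 206.3 CPM of non-mitochondrial UMIs, above the 1.79 CPM that a count of 0 allows. In the 1087 cells without a hashtag pair, NFKBIA was at 98.5 and ICAM1 at 130.2 CPM, above a limit of 0.063. Cells in pairs had 113.8 CPM of NFKBIA and 140.7 of ICAM1 on the same scale.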

How the results depend on the processing

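ICAM1, TNFAIP3 and BIRC3 spanned 4-fold under every alternative run for the spans of members, and ICAM1 ranged from 11.4 to 12.7, BIRC3 from 4.54 to 5.38 and TNFAIP3 from 4.67 to 7.2. Of 78 alternative spans 77 stayed within the interval of the main setting, and that of NFKBIA moved to 3.54 where every cell weighed the same. The 78 include 6 of TNIP3, whose interval was too wide to be left easily. Most settings also reuse largely the same cells, so little movement was to be seen. At a 3-fold limit 6 of 9 members passed, against 24.2% of genes, and at 5-fold 2 of 9 (BIRC3 was lost), against 8.88%. Under the stricter filter (1000 genes or more, mitochondrial UMIs of 10% or less), 121 genes with at least 2000 UMIs spanned 4-fold in place of 261, among 4025 genes in place of 7566. Without thinning the median rank correlation between members was 0.103, and that of NFKBIA with BIRC3 was 0.33. Shares of cells moved with depth in 37 of 40 alternatives. Without antiviral-high and SERPINB3 cells, a setting chosen after seeing the data for this measure, the median Fano factor was 1.88 for NFKBIA and 2.02 for BIRC3. No paired analysis was possible because the result comes from no test and the 2 libraries are of different kinds. Depth limits TNIP3 and the order of neighbouring pairs of NFKB2, RELB and BCL3.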
